A study of Mus musculus with 18 samples.

Results

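The genes described here encode the extracellular matrix of connective tissue cells and the enzymes that cut it. They were chosen by name from a list of 38 symbols: fibrillar, basement membrane and beaded collagens, laminins, matrix metalloproteinases and their inhibitors, the plasminogen activators and their receptor, insulin-like growth factor (IGF) binding proteins, matricellular proteins, collagen crosslinking enzymes and a laminin-binding integrin. Of the 38, 36 were read on the array, each by its brightest probe set on average, out of 18194 genes read in all. Spp1 and Loxl2 were not analysed here, because no probe set was assigned to either gene alone. A gene was tested if its mean log2 signal lay in the upper 60% of genes, a level of 4.74, which 31 of the 36 passed. The 5 below it were Lama3, Mmp10, Mmp13, Plau and Itgb4.

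The matrix is built from collagens, which form fibrils or sheet-like basement membranes, and from laminins and other glycoproteins that cells grip through integrins. Lysyl oxidases crosslink collagen outside the cell. Metalloproteinases and plasmin, which plasminogen activators release from plasminogen, cut matrix proteins, and the TIMP proteins block metalloproteinases. Fibroblasts make most of these products in connective tissue, and several of them are among the factors that senescent cells secrete.

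RNA came from a mouse line called TKO, whose cells the labels describe as having dysfunctional telomeres, a trait that all groups share. The p53ER cells expressed p53ER, the tumour suppressor p53 fused to an estrogen receptor, which becomes active when 4-hydroxytamoxifen (4-OHT) is added, and the uninfected cells did not. Cells of each kind were taken after 4 h with 100 nM 4-OHT, after 4 h with vehicle, and at 0 h, on 3 Affymetrix arrays per group and 18 arrays in all. The study chose 4 h to list genes that p53 might act on directly. The labels describe no empty-vector group, so p53ER, infection and vector cannot be told apart, and whether the p53ER cells were 1 clone is not given. Nothing in them tells separate cultures from repeat hybridisations, and the p-values therefore cover array-to-array spread only, some of it possibly technical.

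Several properties of the whole data set bear on the matrix genes. Before scaling, the 2% trimmed mean signal of the arrays ran from 47.5 to 148, and precision is limited by the number of arrays. With active p53ER the p53 targets Mdm2 and Pmaip1 were higher in 4-OHT than in vehicle by log2 changes of +2.92 (SE 0.41) and +3.38 (SE 0.52; limma adjusted p = 0.0329 and 0.0352), and Cdkn1a by +2.19 (SE 0.49), which did not pass without the replicate block (limma adjusted p = 0.438) and passed with it (0.00817). Uninfected 0 h replicate 2, p53ER vehicle replicate 1 and p53ER 0 h replicate 3 lay apart on the first principal component, and the second component, with 21.8% of the variance, set the replicate 3 arrays of all groups against the others. The labels name no tissue. Of the marker lists, all 10 mesenchymal genes passed the signal filter, with Vim at 13.8, against 4 of 9 epithelial, 5 of 8 macrophage and blood, 2 of 6 endothelial and 3 of 5 muscle genes, whose brightest members (Epcam, Csf1r, Kdr and Ckm) had mean log2 signals of 6.82, 6.33, 5.90 and 5.47.

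All 5 fibrillar collagens, among them both chains of type I collagen (Col1a1 and Col1a2), were well above the filter, with mean log2 signals of 9.78 to 12.4. The basement membrane and beaded collagens ran from 7.74 (Col18a1, whose C-terminal fragment is endostatin) to 10.8 (Col6a1, of the beaded filaments of type VI collagen), and the laminin chains from 4.03 (Lama3) to 7.62 (Lamb1). The metalloproteinases ran from 4.02 (Mmp13, a collagenase) to 9.52 (Mmp2, a gelatinase), and their inhibitors from 10.5 (Timp3) to 13.2 (Timp1). Signal differs between probe sets for reasons other than transcript level, so these values describe each gene's own reading and do not rank the genes.

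**Figure D1:**
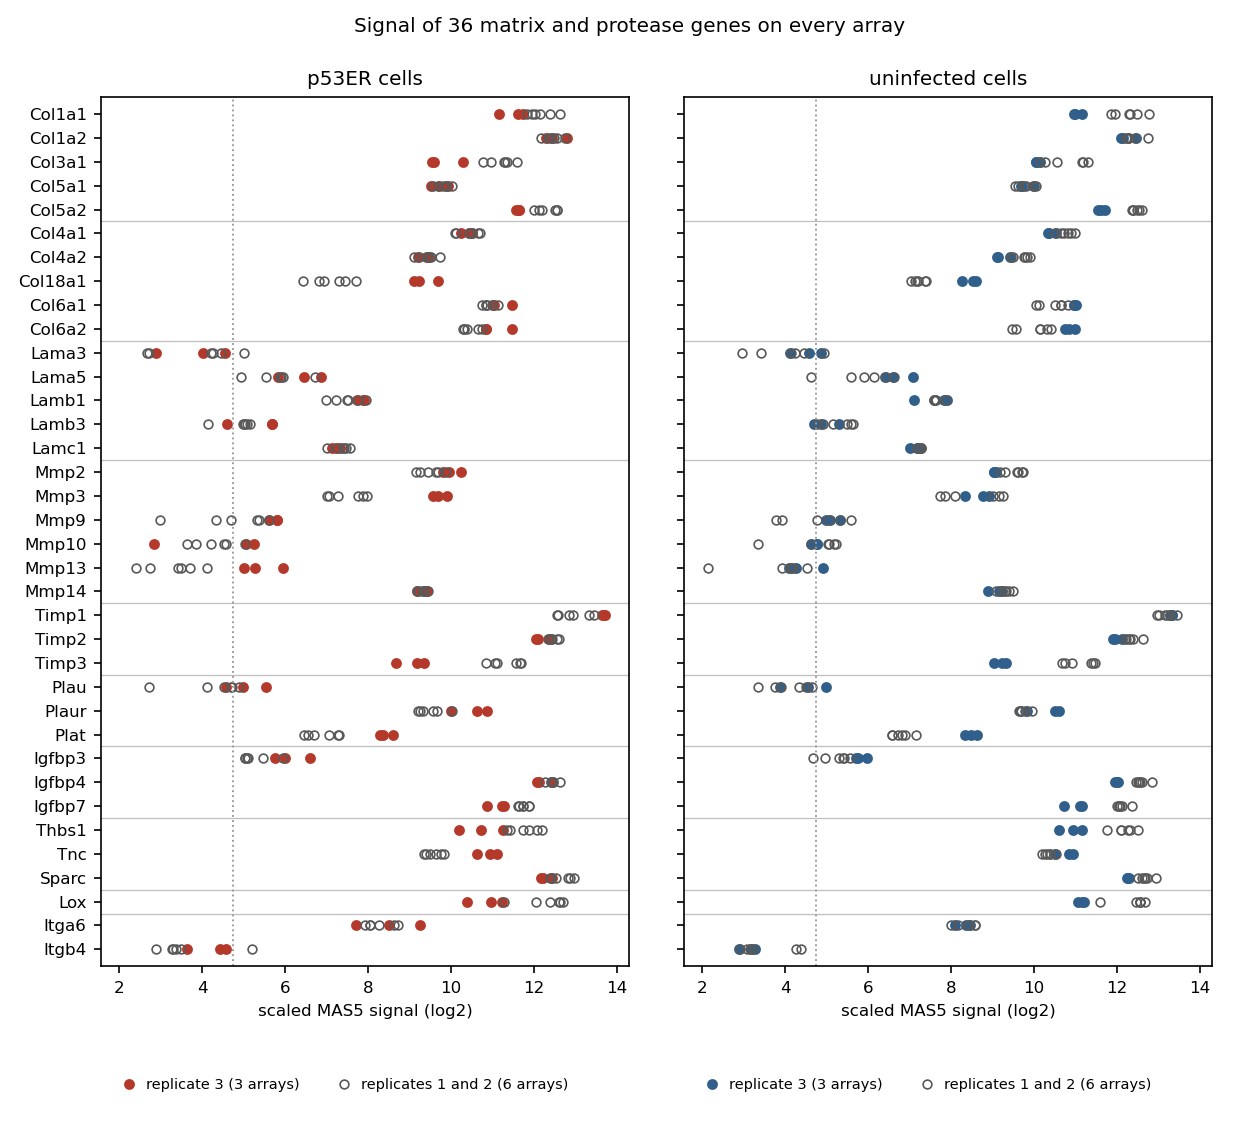
Scaled MAS5 signal on a log2 scale (x axis) of the 36 matrix and protease genes (y axis, in groups of like role parted by lines) in p53ER cells (left) and uninfected cells (right). Each point is 1 array, filled for replicate 3 and open for replicates 1 and 2, and the dotted line is the level of 4.74 above which genes were tested. Timp3 has its 3 filled points below and Plat above all 6 open points in both panels.

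The main comparison asked which genes changed within 4 h of switching p53ER on. No matrix or protease gene passed the threshold (adjusted p under 0.05): limma called 0 of the 31 tested, against 0.0183% of all genes tested, and 1 of 31 had an unadjusted p under 0.05 (3.22% of all genes). With array weights or the replicate number as a block the count was also 0. The median log2 change of the 31, 4-OHT minus vehicle, was -0.02, against -0.01 over all genes. In 2 of the 31 the 3 arrays with 4-OHT did not overlap the 3 with vehicle (7.37% of all genes): Itga6 lay above and Col4a2 below. The 95% interval of the change lay within a log2 change of 1 either way for 19 of the 31, and within 0.5 for 6. These intervals are from the fit without the replicate block, so differences shared by same-numbered arrays count as spread in them.

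Itga6, the integrin alpha-6 chain that pairs with beta-1 or beta-4 to bind laminin, was the gene with an unadjusted p under 0.05. Its log2 signal was 8.61, 8.72 and 9.25 in p53ER cells with 4-OHT, 7.93, 8.26 and 8.49 with vehicle, and 8.05, 8.04 and 7.71 at 0 h. All 3 arrays with 4-OHT lay above all 6 others of the p53ER cells. In uninfected cells it was 8.58, 8.44 and 8.35 with 4-OHT, 8.57, 8.42 and 8.45 with vehicle, and 8.16, 7.98 and 8.09 at 0 h. There the arrays at 4 h lay above those at 0 h whether or not 4-OHT was present. Against vehicle the change in p53ER cells was +0.64 (SE 0.18, 1.55-fold, unadjusted p = 0.00279), which did not pass (limma adjusted p = 0.998), and in uninfected cells it was -0.03. The test of the difference between these gave +0.66 (SE 0.26, limma adjusted p = 1.00). Against 0 h, a comparison that shares the 4-OHT arrays, the change in p53ER cells was +0.93 (SE 0.18, 1.90-fold, 95% interval 0.55 to 1.31, limma adjusted p = 0.120). This was the closest any of the 31 genes came to the threshold in the comparisons between groups. With array weights it was +0.74 and passed (adjusted p = 0.0237), and with the replicate block it did not (0.0545). Without p53ER 4-OHT replicate 3 it was +0.73 (adjusted p = 0.784), and without the third array of every group +0.62 (0.819). A second, dimmer Itga6 probe set differed by +0.55 against vehicle and by +0.83 against 0 h.

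Col4a2, a type IV collagen chain, lay between 9.19 and 9.40 with 4-OHT and between 9.42 and 9.51 with vehicle, a change of -0.19 (SE 0.21, limma adjusted p = 0.998). The other tested genes overlapped between the groups. Igfbp3, a secreted carrier of IGFs that p53 is known to induce in human cells, had log2 signals of 5.02, 5.11 and 6.01 with 4-OHT and 5.46, 5.96 and 6.61 with vehicle, a change of -0.63 (SE 0.38, limma adjusted p = 0.998). Each array with 4-OHT lay below the vehicle array of the same number, but the 2 groups overlapped. Mmp9, a gelatinase, had 5.33, 5.38 and 5.81 with 4-OHT and 2.98, 5.60 and 5.61 with vehicle. Its change of +0.77 (SE 0.59) rested on p53ER vehicle replicate 1, 1 of the 3 arrays that lay apart, and was -0.10 without it. The fibrillar collagens differed by between -0.21 and -0.02, the matricellular proteins (Thbs1, Tnc and Sparc) by between -0.02 and +0.02, and the TIMP genes by between -0.09 and +0.08. Lox, the lysyl oxidase, differed by +0.30. Among the genes below the signal filter, Mmp10, a stromelysin, had 4.56, 4.53 and 5.24 with 4-OHT and 4.22, 3.85 and 2.84 with vehicle. At 0 h it had 3.64, 5.04 and 5.05, and its change with 4-OHT against 0 h was +0.20 (SE 0.47), with overlap. The 4-OHT and vehicle arrays did not overlap (+1.14, SE 0.47), yet with no filter the limma adjusted p of Mmp10 was 0.999. Signals this low are near background. Itgb4, the beta-4 chain, differed by +0.86 (SE 0.53), Lama3 by +0.53, Mmp13 by +0.36 and Plau by +0.19, all with overlapping arrays. With 4-OHT in both cell types, Itgb4 was higher in p53ER than in uninfected cells by 1.21 (SE 0.53) without overlap. With no filter that difference did not pass (limma adjusted p = 0.9999).

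**Figure D2:**
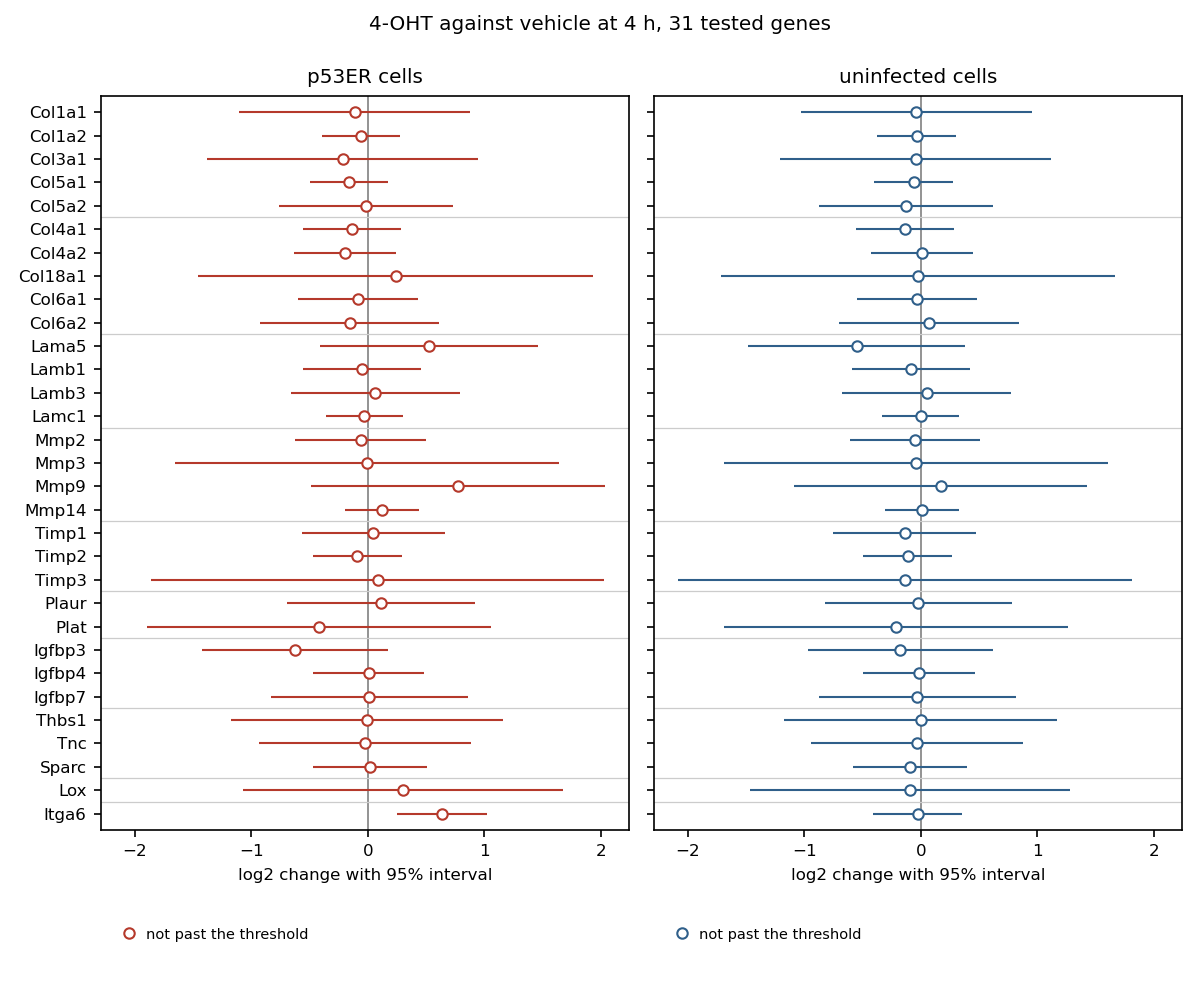
Log2 change with 4-OHT against vehicle at 4 h (x axis) of the 31 tested genes (y axis, grouped by role) in p53ER cells (left) and uninfected cells (right). Points are limma estimates and bars their 95% intervals, from the fit without the replicate block. In p53ER cells the changes run from -0.63 (Igfbp3) to +0.77 (Mmp9), and every point is open because no gene passed the threshold.

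In uninfected cells, which show what 4-OHT does without the fusion, 0 of the 31 passed (limma; 0% of all genes), 0 had an unadjusted p under 0.05 (0.77% of all genes) and the median change was -0.04, against -0.00 over all genes. The arrays with 4-OHT and vehicle overlapped for all 31 (4.3% of all genes did not). Below the filter, Mmp13 lay above without overlap (+0.49, SE 0.77) and did not pass with no filter. Lama5, a laminin alpha chain of basement membranes, had the lowest value, -0.55 (SE 0.44), with overlapping arrays. The difference of the 4-OHT effect between p53ER and uninfected cells also passed for 0 of the 31 (limma; 0% of all genes), with Itga6 the 1 gene at an unadjusted p under 0.05 (1.56% of all genes). Its largest value was +1.08 for Lama5, with a 95% interval of -0.24 to 2.39.

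Time in culture was read from vehicle against 0 h. In p53ER cells 0 of the 31 passed (limma; 0% of all genes), 0 had an unadjusted p under 0.05 (3.05%), 0 had groups that did not overlap (6.02%), and values ran from -0.78 for Lama5 to +0.72 for Igfbp3. In uninfected cells 0 passed (0% of all genes) and 1 had an unadjusted p under 0.05 (5.64%): Itga6, at +0.40 (SE 0.18, adjusted p = 0.829). There 4 of the 31 did not overlap (11.5%), Itga6 above and Col1a2, Lama5 and Mmp9 below. With both 4 h treatments of the uninfected cells averaged, 0 passed (0% of all genes), and 3 had an unadjusted p under 0.05 (7.78%). These were Itga6 at +0.39 (SE 0.16), Col1a2 at -0.33 (SE 0.14) and Lama5 at -0.84 (SE 0.38), each with a limma adjusted p of 0.626. Of the 31, 3 did not overlap (5.8%): Itga6 above and Col1a2 and Mmp9 below. For 4-OHT against 0 h in p53ER cells 0 of the 31 passed (0.0183% of all genes) and 1 had an unadjusted p under 0.05 (4.14%), Itga6, as above. Itga6 and Mmp14 (+0.17, SE 0.15) were the 2 that lay above without overlap (10.9%).

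Cells with and without the fusion were compared before and after 4-OHT. Untreated p53ER against untreated uninfected cells gave 0 of 31 past the threshold (limma; 0.0183% of all genes) and 1 at an unadjusted p under 0.05 (3.43%), Col6a1, at +0.38 (SE 0.17, adjusted p = 0.999). All 31 overlapped (0.137% of all genes did not). With 4-OHT in both, 0 of 31 passed (0.0733% of all genes) and 1 had an unadjusted p under 0.05 (3.84%), Itga6, at +0.41 (SE 0.18, adjusted p = 1.00). In 3 of the 31 the p53ER arrays lay above the uninfected arrays (11.2% of all genes did not overlap either way): Itga6, Col1a2 (+0.20, SE 0.16) and Mmp9 (+0.83, SE 0.59).

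The 100 tested genes of 7 further lists of matrix structure, collagen processing, proteases, inhibitors, receptors, TGF-beta signalling and the IGF system were read in the same way. In each of these 9 comparisons limma called 0 of them, and their median change with 4-OHT against vehicle was +0.03 in p53ER cells and -0.02 in uninfected cells.

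The replicate number separated the matrix genes where treatment did not. Replicate 3 was set against replicates 1 and 2 within each cell type, with the group means held in the fit, so that each group counted equally. The meaning of a number is not given, and arrays of 1 number may share a culture, a day or a labelling, so these p-values treat as separate some arrays that may not be. In p53ER cells 15 of the 31 passed (limma), 8 higher and 7 lower in replicate 3, or 48.4%, while 12.1% of all genes tested passed (5.72% higher and 6.42% lower). In uninfected cells 15 of 31 passed, 6 higher and 9 lower, against 10.4% of all genes (4.58% higher and 5.77% lower). In both, 11 genes passed the same way, 5 higher and 6 lower, against 5.34% of all genes (2.39% higher and 2.9% lower), and 0 passed with opposite signs (0.0458%). Replicate 3 did not overlap the others for 14 of the 31 in p53ER cells (14.8% of all genes) and for 17 in uninfected cells (16.6%). The median size of the change, whatever its sign, was 0.60 and 0.49 log2 units for the 31 genes and 0.24 and 0.23 for all genes in p53ER and uninfected cells. The 31 were not matched to all genes in signal. They ran from the 43.7 (Mmp9) to the 99.9 (Timp1) percentile of genes read, many near the top, and changes of dim genes are understated. The genes were listed with earlier results of these arrays known, so the shares describe these arrays only.

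**Figure D3:**
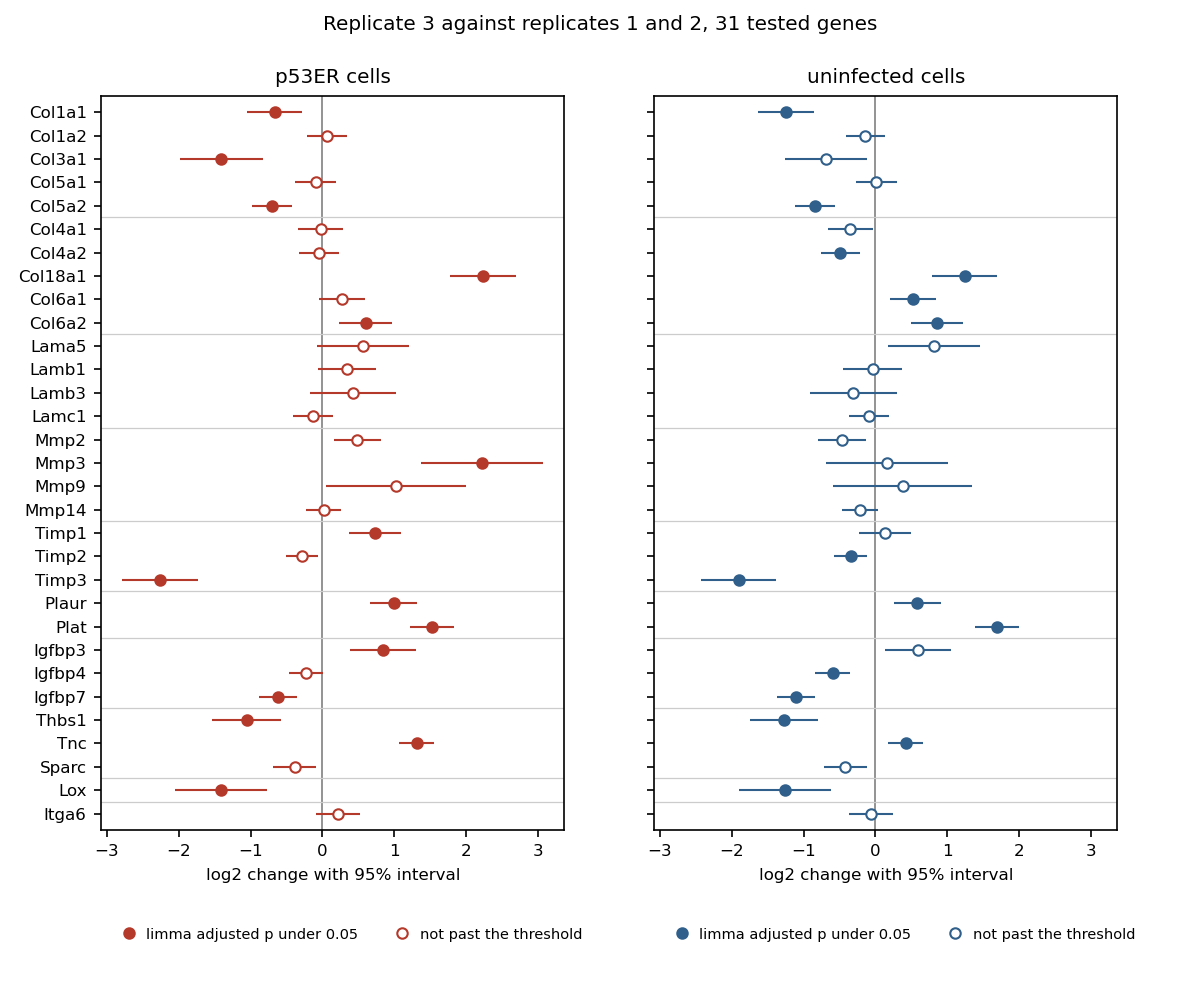
Log2 change in replicate 3 against replicates 1 and 2 (x axis) of the 31 tested genes (y axis, grouped by role) in p53ER cells (left) and uninfected cells (right). Points are limma estimates, filled where the adjusted p was under 0.05, and bars are 95% intervals. Timp3 lies lowest in both panels, at -2.26 and -1.90, and Plat and Col18a1 lie above +1.2 in both.

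The fibrillar collagens were lower or little changed. Col1a1, the alpha-1 chain of type I collagen, had log2 signals of 11.16, 11.61 and 11.72 in replicate 3 of p53ER cells, against 11.83 to 12.62 (median 12.09) in replicates 1 and 2, a change of -0.66 (SE 0.18, limma adjusted p = 0.0248). In uninfected cells replicate 3 had 10.95, 11.15 and 10.98, against 11.85 to 12.76 (median 12.30), a change of -1.24 (SE 0.18, adjusted p = 0.000404). The 2 sets of arrays did not overlap in either cell type. Col5a2, a type V chain that helps to nucleate type I fibrils, fell by 0.70 in p53ER cells and by 0.84 in uninfected cells (SE 0.13 each, limma adjusted p = 0.00259 and 0.000758). Col3a1, the chain of type III collagen, had 9.55, 9.58 and 10.29 in replicate 3 of p53ER cells, against 10.77 to 11.59, a change of -1.40 (SE 0.27, limma adjusted p = 0.00372). In uninfected cells it differed by -0.69 (SE 0.27) and did not pass (adjusted p = 0.122), and the difference between the cell types did not pass either (-0.71, SE 0.38). Col1a2 and Col5a1 differed by between -0.14 and +0.06. Their other probe sets did not all read the same: a second Col1a2 probe set differed by -0.59 and -0.53 in p53ER and uninfected cells, another, dim one by +0.06 and +0.46, and the other 2 of Col5a1 by -0.43 and -0.13 in p53ER cells and by -0.54 and -0.65 in uninfected cells.

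Lox, whose product crosslinks collagen and elastin, had log2 signals of 10.96, 11.22 and 10.38 in replicate 3 of p53ER cells, against 11.28 to 12.69 (median 12.49), and 11.06, 11.20 and 11.14 in replicate 3 of uninfected cells, against 11.60 to 12.68 (median 12.54). It was 2.67-fold lower in p53ER cells (log2 change -1.42, SE 0.30, limma adjusted p = 0.00761) and 2.40-fold lower in uninfected cells (-1.26, SE 0.30, adjusted p = 0.0160).

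The basement membrane and beaded collagens were split. Col18a1 had 9.67, 9.24 and 9.10 in replicate 3 of p53ER cells, against 6.43 to 7.70 (median 7.12), and 8.59, 8.52 and 8.26 in replicate 3 of uninfected cells, against 7.03 to 7.39 (median 7.18). Replicate 3 lay above the others throughout, 4.71-fold in p53ER cells (log2 change +2.24, SE 0.21, limma adjusted p = 1e-05) and 2.37-fold in uninfected cells (+1.24, SE 0.21, adjusted p = 0.00153). Col6a2, an alpha chain of type VI collagen, rose by 0.60 (SE 0.17, limma adjusted p = 0.0311) and by 0.86 (SE 0.17, adjusted p = 0.00461) in p53ER and uninfected cells. Its partner Col6a1 differed by +0.27 in p53ER cells, where it did not pass, and rose by 0.52 in uninfected cells (SE 0.15, limma adjusted p = 0.0383). Of the type IV chains, which form the basement membrane network, Col4a1 differed by -0.02 and -0.35 and did not pass. A second Col4a1 probe set differed by +0.06 in p53ER cells and by -0.59 (SE 0.15) in uninfected cells. Col4a2 fell in uninfected cells (-0.49, SE 0.13, limma adjusted p = 0.0245) and differed by -0.05 in p53ER cells. None of the 4 tested laminin chains passed in either cell type, with changes between -0.13 and +0.56 in p53ER cells and between -0.31 and +0.81 in uninfected cells. Lama5 gave the highest value in each, and a second, dimmer Lama5 probe set differed by +0.95 and +0.25 (SE 0.27 each). The laminin receptor chain Itga6 differed by +0.22 and -0.06, although its second probe set differed by +1.10 in p53ER cells and +0.09 in uninfected cells.

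**Figure D4:**
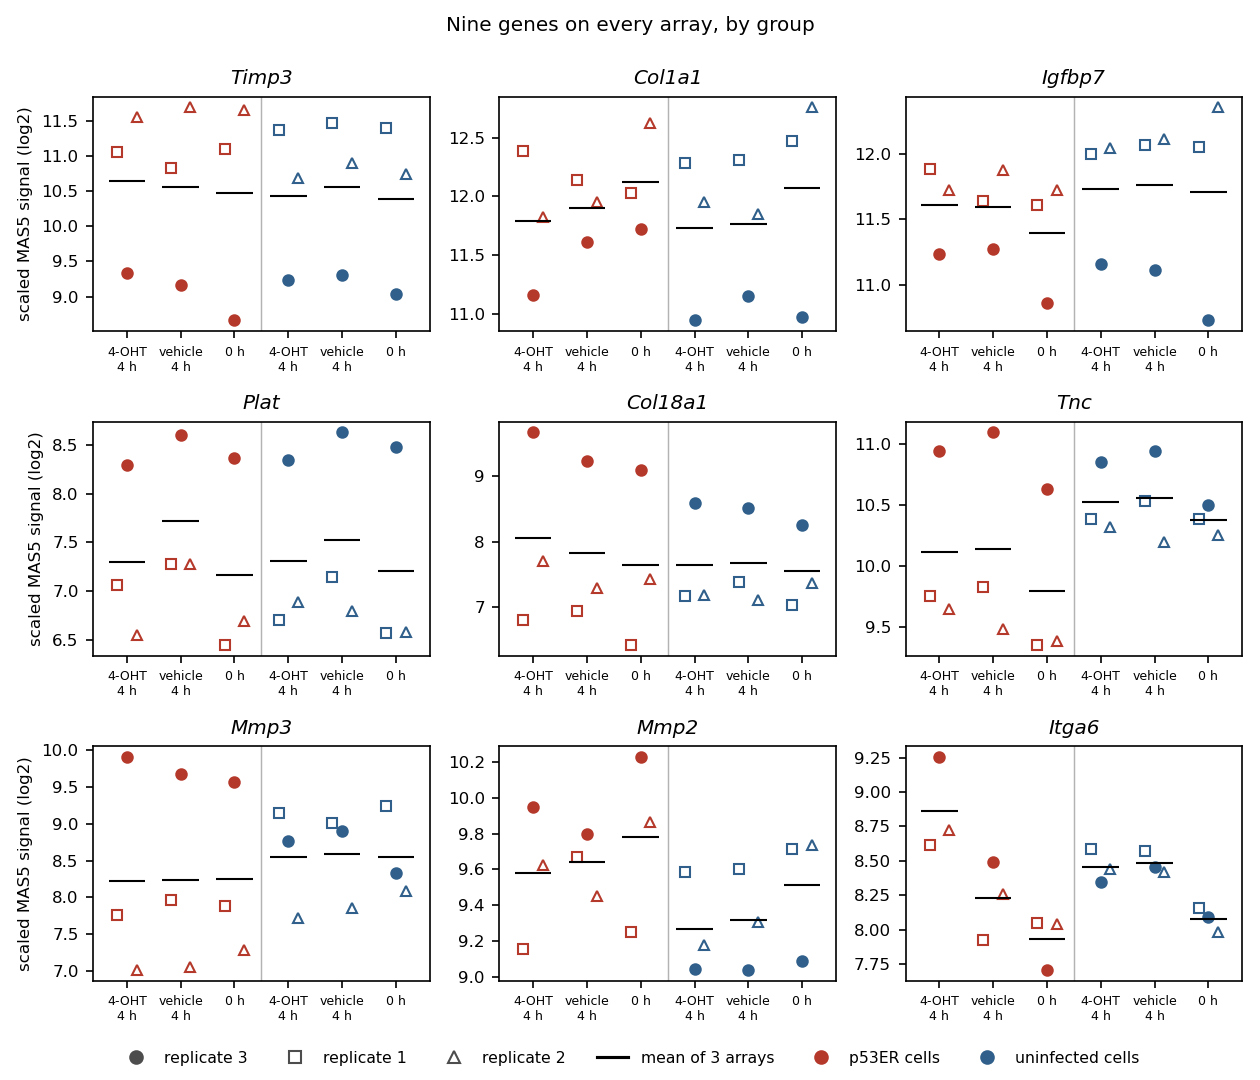
Scaled MAS5 signal on a log2 scale (y axes, each with its own range) of 9 genes in the 6 groups (x axes: 4-OHT at 4 h, vehicle at 4 h and 0 h, for p53ER cells left of the line and uninfected cells right of it). Each symbol is 1 array, with replicate 3 filled, and each bar is the mean of 3 arrays. Replicate 3 is lowest in all 6 groups for Timp3, Col1a1 and Igfbp7 and highest for Plat, Col18a1 and Tnc, while for Mmp3 and Mmp2 it is highest only in the p53ER groups.

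The metalloproteinase inhibitors held the gene with the lowest change, Timp3, whose product binds to the matrix and blocks metalloproteinases and the sheddase ADAM17. It had log2 signals of 9.34, 9.17 and 8.66 in replicate 3 of p53ER cells, against 10.84 to 11.69 (median 11.33). In uninfected cells it had 9.23, 9.31 and 9.03 in replicate 3, against 10.68 to 11.47 (median 11.14). Every replicate 3 array of either cell type lay below every other array of the 18. It was 4.79-fold lower in p53ER cells (-2.26, SE 0.24, limma adjusted p = 5e-05) and 3.74-fold lower in uninfected cells (-1.90, SE 0.24, adjusted p = 0.000237), and its other 3 probe sets differed by between -2.20 and -1.92 and between -2.10 and -1.77. Timp1, which inhibits most metalloproteinases, went the other way in p53ER cells, with 13.68, 13.71 and 13.64 against 12.55 to 13.43 (+0.73, SE 0.17, limma adjusted p = 0.0108). In uninfected cells Timp1 differed by +0.13 (SE 0.17) and did not pass. Timp2 differed by -0.29 in p53ER cells and fell by 0.35 in uninfected cells (SE 0.11, limma adjusted p = 0.0497).

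Among the metalloproteinases themselves, Mmp3 (stromelysin 1) had log2 signals of 9.91, 9.68 and 9.56 in replicate 3 of p53ER cells, against 7.01 to 7.97 (median 7.52), a change of +2.23 (SE 0.39, 4.68-fold, limma adjusted p = 0.00288). In uninfected cells the values were 8.77, 8.91 and 8.33 against 7.72 to 9.24 (median 8.55), which overlapped (+0.16, SE 0.39, adjusted p = 0.875). The test of the difference between the cell types did not pass (+2.07, SE 0.55, limma adjusted p = 0.182), but it did with separate terms for all 3 replicates (adjusted p = 0.000348). In uninfected cells replicate 1 was higher than replicate 2 in every group, at 9.15, 9.01 and 9.24 against 7.72, 7.85 and 8.09. Mmp2 was 9.95, 9.80 and 10.23 in replicate 3 of p53ER cells, against 9.16 to 9.87, and 9.04, 9.04 and 9.09 in replicate 3 of uninfected cells, against 9.17 to 9.74. It leaned opposite ways, +0.49 (SE 0.16, limma adjusted p = 0.0542) and -0.46 (SE 0.16, adjusted p = 0.0733), and neither passed. The difference was +0.95 (SE 0.22, adjusted p = 0.0972, and 0.0348 with separate terms for all 3 replicates), and a second Mmp2 probe set read +0.48 and -0.65. Mmp9 had 5.81, 5.61 and 5.80 in replicate 3 of p53ER cells, against 2.98 to 5.60, and differed by +1.02 (SE 0.46), which did not pass (limma adjusted p = 0.176). Mmp14, the membrane-bound activator of Mmp2, differed by +0.02 and -0.21. Mmp13, below the signal filter, had 5.96, 5.28 and 5.01 in replicate 3 of p53ER cells, against 2.41 to 4.10, and without the filter it rose by 2.10 (SE 0.46, limma adjusted p = 0.00842). In uninfected cells it differed by +0.57 (SE 0.46).

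Both tested genes of the plasminogen system rose in both cell types. Plat, the tissue plasminogen activator, had log2 signals of 8.30, 8.60 and 8.36 in replicate 3 of p53ER cells, against 6.45 to 7.28 (median 6.88), and 8.34, 8.63 and 8.47 in replicate 3 of uninfected cells, against 6.57 to 7.15 (median 6.76). It was 2.89-fold higher in p53ER cells (+1.53, SE 0.14, limma adjusted p = 8.96e-06) and 3.23-fold higher in uninfected cells (+1.69, SE 0.14, adjusted p = 2.72e-06). Plaur, the cell-surface receptor that holds urokinase, had 10.62, 10.86 and 10.00 in replicate 3 of p53ER cells, against 9.19 to 10.02, and rose by 0.99 (SE 0.15, limma adjusted p = 0.000508). In uninfected cells Plaur had 10.59, 10.49 and 9.84 in replicate 3, against 9.62 to 9.94, and rose by 0.58 (SE 0.15, adjusted p = 0.0220). Replicate 3 was the highest of its group for Plaur in all 6 groups, although the pooled sets overlapped. Plau, urokinase itself, was below the signal filter, at 5.54, 4.99 and 4.57 in replicate 3 of p53ER cells, against 2.71 to 4.88, which overlapped.

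The IGF binding and matricellular genes moved in both directions. Igfbp7, which binds IGFs and insulin, had log2 signals of 11.23, 11.27 and 10.86 in replicate 3 of p53ER cells, against 11.61 to 11.88, and 11.16, 11.11 and 10.73 in replicate 3 of uninfected cells, against a median of 12.06 and a highest of 12.35, with no overlap. It fell by 0.62 in p53ER cells (SE 0.12, limma adjusted p = 0.00373) and by 1.10 in uninfected cells (SE 0.12, adjusted p = 3.80e-05). Igfbp4 fell by 0.60 in uninfected cells (SE 0.11, limma adjusted p = 0.00325) and differed by -0.23 in p53ER cells, where its 6 probe sets read between -0.73 and -0.17. Igfbp3 rose by 0.84 in p53ER cells (SE 0.22, limma adjusted p = 0.0174) and differed by +0.59 in uninfected cells (SE 0.22, adjusted p = 0.0969). Thbs1, an anti-angiogenic protein that activates latent TGF-beta, had 10.71, 11.25 and 10.18 in replicate 3 of p53ER cells, against 11.36 to 12.18, and 10.94, 11.14 and 10.59 in replicate 3 of uninfected cells, against 11.75 to 12.49. It was 2.08-fold lower in p53ER cells (-1.05, SE 0.22, limma adjusted p = 0.00657) and 2.42-fold lower in uninfected cells (-1.27, SE 0.22, adjusted p = 0.00215). Sparc, a collagen-binding protein, differed by -0.39 and -0.42 (SE 0.14 each) and did not pass.

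Tnc, the large matrix glycoprotein of wounds and developing tissue, was the 1 gene of the 31 (0.311% of all genes tested) whose replicate 3 change differed between the cell types (limma). It had log2 signals of 10.94, 11.09 and 10.63 in replicate 3 of p53ER cells, against 9.35 to 9.83 (median 9.56), a change of +1.32 (SE 0.12, limma adjusted p = 4.33e-06). In uninfected cells it had 10.85, 10.94 and 10.50 in replicate 3, against 10.19 to 10.53 (median 10.35), a change of +0.42 (SE 0.12, adjusted p = 0.0291). The difference of these, p53ER minus uninfected, was +0.90 (SE 0.16, limma adjusted p = 0.0245), and it kept the call in 8 of the 18 fits that left out 1 array each, between +0.78 and +0.98, with a highest adjusted p of 0.152. The call was lost without each of the 6 replicate 3 arrays and without p53ER 0 h replicate 1, p53ER 4-OHT replicate 2, uninfected 4-OHT replicate 1 and uninfected vehicle replicate 1. In replicate 3 the cell types gave nearly the same values, and in replicates 1 and 2 every p53ER array lay below every uninfected array. Untreated p53ER and uninfected cells differed by -0.50 (SE 0.30, adjusted p = 0.999) over all arrays, and by -0.83 without the third array of every group, which did not pass either (adjusted p = 0.0953).

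The calls differed in how far they rested on single arrays. In p53ER cells Col18a1, Col3a1, Col5a2, Igfbp7, Mmp3, Plat, Plaur, Timp3 and Tnc passed in all 18 fits that left out 1 array each. In uninfected cells Col18a1, Col1a1, Col5a2, Igfbp4, Igfbp7, Plat, Thbs1 and Timp3 did. Of the others in p53ER cells, Lox (-1.76 to -1.15) and Thbs1 (-1.39 to -0.79) lost the call without 4-OHT replicate 3 or 0 h replicate 3, Timp1 (+0.61 to +0.86) without 0 h replicate 3, and Igfbp3 (+0.77 to +0.92) without 4-OHT or vehicle replicate 3. Col1a1 (-0.78 to -0.52) lost it when 4-OHT replicates 1 or 3 were omitted, or those of 0 h numbered 2 or 3, and Col6a2 (+0.43 to +0.74) without any p53ER array other than vehicle replicates 1 and 3. In uninfected cells Lox (-1.45 to -1.15) and Plaur (+0.44 to +0.78) lost the call without 4-OHT or vehicle replicate 3, and Col6a2 (+0.76 to +0.97) without 4-OHT replicate 3. Col4a2 (-0.53 to -0.44) lost it without any replicate 3 array or without 4-OHT or vehicle replicate 1, and Tnc (+0.34 to +0.54) without 4-OHT or vehicle replicate 2 or 3 or 4-OHT replicate 1. Col6a1 (+0.43 to +0.62) kept the call in 9 of the 18 fits and lost it without any uninfected replicate 2 or 3 or any p53ER 4-OHT array. Timp2 (-0.39 to -0.30) kept it in 4, those without p53ER vehicle replicate 1 or 3, p53ER 0 h replicate 3 or uninfected 0 h replicate 1. Omitting the 3 arrays apart on the first component left 16 calls in p53ER cells, where 13.1% of all genes passed, and 17 in uninfected cells, where the share of all genes was 21.8%, against 10.4% with all arrays. Col1a1, Col6a2 and Timp1 then no longer passed in p53ER cells (limma adjusted p = 0.0723, 0.0888 and 0.0631).

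Other probe sets of the called genes that lay above the filter read the same direction, counted by sign alone. In p53ER cells 9 of the 15 genes had further probe sets above the filter, 11 in all, and 11 of 11 had the same sign. In uninfected cells 10 genes had 20, and 20 of 20 did. Sizes differed: in p53ER cells a second Igfbp7 probe set read -0.06 (SE 0.32) and a second Col6a2 probe set +0.25 (SE 0.15). Below the filter, a second Plat probe set read +0.34 (SE 0.45) in p53ER cells and -1.45 (SE 0.45) in uninfected cells, the latter opposite to the call. Of the array properties below, the Gapdh ratio set replicate 3 apart in both cell types and the trimmed mean signal in uninfected cells only. The actin ratio overlapped in both. The part of these properties in the differences was not tested. The ratio of the 3' to the 5' Gapdh control probe set, a measure of RNA integrity and labelling, was 0.891 to 0.950 in replicate 3 against 0.782 to 0.833 in replicates 1 and 2 of p53ER cells, and 0.860 to 0.897 against at most 0.841 in uninfected cells, with no overlap. The same ratio for actin was 1.08 to 1.13 against 1.05 to 1.17 in p53ER cells and 1.00 to 1.09 against 1.08 to 1.22 in uninfected cells. The trimmed mean signal was 64.9 to 73.5 against 62.0 to 148 in p53ER cells and 47.5 to 50.9 against 58.1 to 121 in uninfected cells.

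Some markers of cell types also moved. Of all genes tested, 5.72% passed higher and 6.42% lower in replicate 3 of p53ER cells, and 4.58% and 5.77% in uninfected cells. Of the 10 mesenchymal markers 3 fell in replicate 3 of p53ER cells (Pdgfrb by 1.21, Thy1 by 0.83 and Twist1 by 0.59 on the log2 scale; limma adjusted p = 0.00142, 0.00819 and 0.0294) and 2 in uninfected cells (Pdgfrb by 1.88 and Thy1 by 1.01; adjusted p = 4.18e-05 and 0.00257), and 0 rose. The summed signal of this list, which Vim and S100a4 (mean log2 signals of 13.8 and 13.5, against at most 9.39 for the other 8) largely set, was 25550 to 29290 in replicate 3 and 22170 to 35470 in the others of p53ER cells, and 25710 to 27850 and 24570 to 36460 in uninfected cells. Of the epithelial markers tested, Epcam fell in uninfected cells (by 1.09, SE 0.17, limma adjusted p = 0.000785), and the list's summed signal was 219.5 to 301 in replicate 3 and 268 to 332 in the others of p53ER cells, and 204.5 to 314 and 285 to 368 in uninfected cells. None of the 5 macrophage and blood, 2 endothelial and 3 muscle markers tested passed in either cell type. These lists are too short to set against the shares of all genes. The summed signals of the whole lists in replicate 3 were 220.8 to 274.9, 85.4 to 123.7 and 92.5 to 149.6 in p53ER cells, against 204.2 to 298.5, 91.2 to 180.6 and 91.0 to 149.9 in replicates 1 and 2. In uninfected cells they were 222.4 to 285.1, 81.8 to 191.9 and 87.8 to 175.1 in replicate 3, against 242.8 to 312.8, 106.7 to 163.7 and 129.7 to 174 in the others. In p53ER cells the p53 targets Cdkn1a and Mdm2 were also higher in replicate 3, by 1.44 (SE 0.17) and 1.06 (SE 0.22), with limma adjusted p = 6.63e-05 and 0.00496. Pmaip1 differed by +0.46 (SE 0.45) there and did not pass (limma adjusted p = 0.587). In uninfected cells Cdkn1a, Mdm2 and Pmaip1 differed by +0.49, +0.39 and +0.08 and none passed (limma adjusted p = 0.0931, 0.317 and 0.951).

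The further matrix lists also held genes that differed by replicate number. Of their 100 tested genes 12 were higher and 19 lower in replicate 3 of p53ER cells (limma; 5.72% and 6.42% of all genes), with a median change of -0.06, against -0.00 over all genes. In uninfected cells 6 were higher and 28 lower (4.58% and 5.77% of all genes), with a median change of -0.23, against +0.01 over all genes. The aggrecanase gene Adamts5 fell, with log2 changes of -2.28 and -2.45 in p53ER and uninfected cells, and so did the laminin chain Lama4 (-1.57 and -1.60), Thbs2 (-1.45 and -1.42) and the lysyl oxidase relatives Loxl4 (-0.93 and -0.85) and Loxl3 (-0.80 and -0.74). The prolyl hydroxylase chain P4ha1, which modifies procollagen, fell as well (-0.78 and -0.60), and so did the metalloproteinase inhibitor Reck (-1.61 and -2.30). Tgfb1, the growth factor that drives much matrix synthesis, rose by 1.37 and 0.81, and Tgfbi, a TGF-beta-induced matrix protein, by 1.25 and 1.05, while Tgfb3 fell (-0.89 and -1.09). Each of these genes passed in both cell types. So did Mmp23 (-1.85 and -1.93), Pappa (-1.81 and -2.17) and Serpinf1 (-0.897 and -1.25), which fell. In p53ER cells Col5a3 (+1.504), Ltbp3 (+0.83), Igfbp6 (+0.72) and Itga5 (+0.58) passed higher, and Eln, Mmp16, Adamts1 and Igfbp5 lower. In uninfected cells Adamts9 (+1.67) passed higher, and Mfap5, Ctsk, Fbln5, Tgfb2, Plod1, Cst3 and Itgb5 lower. For genes named in 1 cell type only, the other cell type is not given here. The lysosomal proteases Ctsb and Ctsl were the 2 of the 100 whose replicate 3 change differed between the cell types (+0.98 and +0.93, p53ER minus uninfected; limma adjusted p = 0.0103 and 0.0175).

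Promoter sequence was taken from RefSeq (GRCm38.p6) for the 24 of the 36 genes with an entry, 28 entries in all, over the 250 bases before the annotated start. Of the genes that passed the same way in both cell types, Timp3 and Plaur are shown as those with the largest mean change down and up among genes with 1 entry. Mmp3, Mmp10 and Mmp13, neighbours on chromosome 9, are shown because the metalloproteinase changes in p53ER cells turn on Mmp3 and Mmp13, a choice made after their values were seen. Capitals mark the motifs searched on both strands: the AP-1 motif TGANTCA, the TATA box TATAAA, the GC box GGGCGG and the CCAAT box CCAAT.
Timp3, chr10:86300162-86300411, plus strand: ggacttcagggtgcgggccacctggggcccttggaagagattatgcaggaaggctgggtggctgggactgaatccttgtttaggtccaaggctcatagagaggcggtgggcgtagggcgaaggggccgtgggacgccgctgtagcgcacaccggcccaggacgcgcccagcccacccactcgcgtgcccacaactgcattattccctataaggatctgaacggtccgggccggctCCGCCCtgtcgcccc
Plaur, chr7:24462233-24462482, plus strand: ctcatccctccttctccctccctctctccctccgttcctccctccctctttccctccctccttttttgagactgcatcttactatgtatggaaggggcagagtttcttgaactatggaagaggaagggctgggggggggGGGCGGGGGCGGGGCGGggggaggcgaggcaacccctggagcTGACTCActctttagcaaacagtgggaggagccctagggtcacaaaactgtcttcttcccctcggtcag
Mmp3, chr9:7445572-7445821, plus strand: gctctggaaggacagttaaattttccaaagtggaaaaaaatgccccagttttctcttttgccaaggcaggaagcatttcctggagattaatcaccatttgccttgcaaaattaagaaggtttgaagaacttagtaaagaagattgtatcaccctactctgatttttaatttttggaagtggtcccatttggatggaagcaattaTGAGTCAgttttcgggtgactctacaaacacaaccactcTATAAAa
Mmp10, chr9:7502092-7502341, plus strand: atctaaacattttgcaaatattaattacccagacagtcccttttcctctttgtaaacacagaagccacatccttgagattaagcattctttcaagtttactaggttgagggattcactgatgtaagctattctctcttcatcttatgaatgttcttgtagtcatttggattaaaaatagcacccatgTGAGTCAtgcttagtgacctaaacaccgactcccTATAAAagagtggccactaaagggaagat
Mmp13, chr9:7272264-7272513, plus strand: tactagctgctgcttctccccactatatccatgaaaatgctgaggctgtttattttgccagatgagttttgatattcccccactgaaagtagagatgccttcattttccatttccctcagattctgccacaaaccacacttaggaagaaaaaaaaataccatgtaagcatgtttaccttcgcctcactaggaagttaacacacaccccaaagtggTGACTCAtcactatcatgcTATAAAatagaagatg
The AP-1 motif was found once in each of Plaur, Mmp3, Mmp10 and Mmp13, at bases -69 to -63, -46 to -40, -63 to -57 and -35 to -29 from the start, and in Col6a1. It was thus in 5 of the members' 28 entries (17.9%), against 6.7% of all 32851 promoters of the same length. The TATA box was in Mmp3, Mmp10 and Mmp13, at bases -7 to -2, -29 to -24 and -16 to -11, and in 25% of the members' entries, against 12.4% of all. The Plaur window held 3 GC boxes, at -111 to -106, -105 to -100 and -100 to -95, the last 2 of which share a base, and the Timp3 window held 1 on the minus strand at -15 to -10. The GC box was in 57.1% of the members' entries and 32.7% of all, and the CCAAT box in 28.6% and 33.8% (none in the windows shown). A match describes these letters and is not evidence of binding.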

How the data were processed

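The deposited values are MAS5 signal intensities of 45101 probe sets on 18 arrays, made by the authors per the submitters' processing notes, which give no version. They are on a linear scale. Each array was scaled here to a common 2% trimmed mean (82.7), 5% of it (4.13) was added, and log2 was taken, so changes of dim genes are understated. Probe sets were named from GEO's platform annotation, 34958 with 1 gene and 932 with several, which were left out; 9211 were not listed. Symbols were updated by Entrez ID for 34754. Each gene was read by its brightest probe set, and the upper 60% of 18194 genes (10916) were tested.

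Group means were fitted with limma 3.58.1 in R 4.3.3 (trend and robust empirical Bayes, 12 residual degrees of freedom, and 10 with replicate 3 terms per cell type), with Benjamini-Hochberg adjustment over all 10916 genes in each of 12 comparisons and a threshold of 0.05. The 2-group exact permutation test of 3 arrays against 3 cannot go below p = 0.10 and was not used. Scripts were tested on simulated data.

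Same-numbered arrays deviated together (every pair's correlation over 0.1) in 4 of the 9 group comparisons: 4-OHT against vehicle in p53ER cells (0.21 to 0.45) and in uninfected cells (0.31 to 0.62), p53ER 4-OHT against 0 h (0.27 to 0.47), and p53ER against uninfected cells with 4-OHT (0.17 to 0.47). The pairing comes from the numbers in the titles and these correlations.

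The members and all gene lists were chosen with earlier results of these data known. All members read on the array are described. From each further matrix list up to 4 genes per comparison could be named, those past the threshold with the largest change. Alternatives were quantile normalization, no offset or one of 20%, no filter or the upper 40%, all probe sets, array weights, the replicate number as a block, and leaving out each array. Leaving out the 3 arrays that lay apart, or the third array of every group, was chosen after seeing the data. Sequences are from RefSeq (GRCm38.p6).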

Additional observations from a re-analysis of the deposited data

Results flagged for a closer look

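One value differed between the cell types by a test of the difference itself: the change of Tnc in replicate 3 against replicates 1 and 2 was larger by 0.90 on the log2 scale (SE 0.16) in p53ER cells than in uninfected cells (limma adjusted p = 0.0245). Tnc was higher in replicate 3 in 3 of 3 groups of each cell type. What the replicate number stands for was not tested.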

How the results depend on the processing

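In the 9 comparisons between groups the count of 0 members past the threshold held under quantile normalization, both other offsets, both other filters, all probe sets and the replicate block (pairing of same-numbered arrays), and when any 1 array was left out (0 to 0). The exception was array weights, which called 1 member, Itga6, for p53ER 4-OHT against 0 h. There 0.257% of all genes passed, against 0.0183% without weights. For replicate 3 the 15 calls in p53ER cells were 10 to 17, and the 15 in uninfected cells 8 to 16, when 1 array was left out. The shares of all genes in those fits are not given here. The lowest uninfected counts were 8 without uninfected 4-OHT replicate 3 and 9 without uninfected vehicle replicate 3. With array weights the replicate 3 counts were 22 and 21 in p53ER and uninfected cells, while 23.1% and 25.4% of all genes passed. Under those other normalization, offset, filter, probe set and block settings they were between 14 and 18. With the block 15% and 13.5% of all genes passed, against 12.1% and 10.4% in the main fit. The 1 call for the difference of the replicate 3 change (Tnc) became 3 with array weights and 4 with the replicate block per cell type (Tnc, Mmp3, Mmp2 and Col18a1), and 0 to 1 when 1 array was left out. The share of all genes called also rose, from 0.311% to 3.5% with array weights and 0.889% with the block. The causes were not tested. No member's called change reversed its sign. Depth is not defined for arrays, and dim probe sets, whose signal is near background, limit what can be read of Lama3, Mmp10, Mmp13, Plau and Itgb4.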
